A study of Mus musculus with 24 samples.

Results

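The Hox cluster genes are the homeobox genes that lie in 4 chromosomal clusters, and the 38 members described here were taken by gene symbol from the 49705 entries of a deposited expression table, without use of any measured value. Cluster A held 10 members on the minus strand (mm10 chr6:52162417-52260880), cluster B 10 on the plus strand (chr11:96194316-96368256), cluster C 9 on the plus strand (chr15:102921103-103036852) and cluster D 9 on the plus strand (chr2:74668310-74765142). Hox proteins are transcription factors that give cells of the embryo a position along the head-to-tail axis. Genes with the same number in different clusters are paralogues, low numbers are switched on earlier and reach further forward into the hindbrain, and high numbers mark the trunk and tail. The most anterior neural plate, from which the eye field and the optic vesicle form, is normally free of Hox expression.

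RNA was measured by sequencing of polyadenylated RNA in 24 libraries of optic vesicle (OV) organoids, which are aggregates of mouse embryonic stem cells (mESCs) that form retina-like tissue in culture. Live cells were collected on days 0, 1, 2 and 3, and on days 4 and 5 they were sorted into a GFP-negative and a GFP-positive fraction, which gave 8 groups of 3 replicates. All groups came from 1 mESC line, Rx-GFP K/I EB5, in which GFP was knocked into the Rax locus, so the sort selects on the activity of an eye-field gene. All were cultured in the same way, with Matrigel added on day 1, so that day 0 cells had not received it. Each sample pooled 24 organoids, the GFP-negative gate took in some cells with low GFP, the GFP-positive gate took in cells with moderate as well as high GFP, and day 3 was not split although it held a few GFP-expressing cells.

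Values are DESeq2-normalized counts, in which 1 read was worth about 0.80 to 1.40, at an estimated depth of 36800000 to 54500000 assigned reads per library (the estimate comes from the step at which each library's lowest values cluster). Library totals of normalized counts ranged from 39849111 to 51587535. Day 0 replicate 1 stood apart: its rank correlation over all genes with the other day 0 libraries was 0.953 to 0.954, against 0.979 to 0.993 for every other pair of replicates of a group. The day 0 calls of Hoxa2, Hoxa5, Hoxb9 and Hoxb13 are therefore given with and without it, and other day 0 tests only with it. The eye-field list (Rax, Six3, Lhx2, Six6 and Pax6) summed to between 45893 and 57307 normalized counts in GFP-positive libraries and between 8351 and 10833 in GFP-negative ones, so the gates followed the labels, with eye-field RNA also in the GFP-negative fraction. All samples carry the label of embryonic stem cells, and the sum of 5 pluripotency genes was 85748 to 97522 on day 0 and 327 to 418 in day 5 GFP-positive cells.

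Promoter sequence is shown for 4 members whose transcripts were more abundant in GFP-negative cells and whose promoters hold one of 3 short motifs, which are those of Hox proteins with their partner Pbx (TGATNNAT), of Cdx proteins (TTTATG) and of retinoic acid receptors (the half-site AGGTCA). Stretches are RefSeq sequence of GRCm38.p6, written 5′ to 3′ in the direction of transcription, with matches on either strand in capitals. They cover chr11:96365548-96365647 (plus strand) for Hoxb1, chr6:52164872-52164971 (minus strand) for Hoxa2, chr11:96281735-96281904 (plus strand) for Hoxb8 and chr2:74721823-74721952 (plus strand) for Hoxd4, all upstream of the RefSeq start. The Hoxd4 entry of the deposited table begins further upstream (chr2:74711929-74729160), so that the stretch lies inside that entry.
Hoxb1: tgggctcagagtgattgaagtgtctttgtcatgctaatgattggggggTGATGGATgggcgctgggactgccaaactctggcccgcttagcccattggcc
Hoxa2: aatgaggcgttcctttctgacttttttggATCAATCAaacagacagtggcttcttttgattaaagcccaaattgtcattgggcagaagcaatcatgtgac
Hoxb8: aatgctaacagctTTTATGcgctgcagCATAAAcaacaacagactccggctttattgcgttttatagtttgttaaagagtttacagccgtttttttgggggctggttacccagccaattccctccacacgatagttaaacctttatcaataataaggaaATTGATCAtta
Hoxd4: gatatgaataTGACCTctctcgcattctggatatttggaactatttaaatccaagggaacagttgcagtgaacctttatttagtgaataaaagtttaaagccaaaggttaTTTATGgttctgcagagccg

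The Hoxb1 match began 162 bases before the start and the Hoxa2 match 111 bases before it. In Hoxb8 the Cdx letters occurred on both strands, 157 and 143 bases before the start, and the Hox and Pbx letters 11 bases before it. In Hoxd4 a receptor half-site and the Cdx letters began 145 and 45 bases before the start. Promoters (250 bases before to 50 after the start) were at hand for 22 of the 38 members. TGATNNAT occurred in 4 of these (Hoxa2, Hoxb1, Hoxb8 and Hoxd11) and in 8.85% of all 32851 promoters, TTTATG in 5 (Hoxa7, Hoxb8, Hoxd3, Hoxd4 and Hoxd11) and in 11.9%, and AGGTCA in 7 (Hoxa5, Hoxb4, Hoxc4, Hoxd3, Hoxd4, Hoxd8 and Hoxd10) and in 16.3%. These 3 motifs were kept out of 15 letter strings searched, after their matches had been counted, and none was tested. A match describes the letters of the window and says nothing of binding. The GC content of the members' promoters had a median of 57.7%, against 52.7% over all promoters.

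By the median of 3 libraries Hox RNA was highest in the GFP-negative cells of days 4 and 5, and it was low on day 3 and in both GFP-positive groups. The sum over the 38 members was 621, 1398 and 1381 normalized counts in the 3 day 4 GFP-negative libraries and 1970, 2193 and 1138 on day 5. In GFP-positive cells the sums were 42.9, 76.4 and 130 on day 4 and 75.2, 99.3 and 66.0 on day 5. No GFP-positive library overlapped the GFP-negative libraries of its day, and the GFP-positive sums lay about the level of day 3, where they were 99.4, 106 and 94.3. In RNA from many cells, fewer cells that express a gene and less RNA per cell cannot be told apart.

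**Figure D1:**
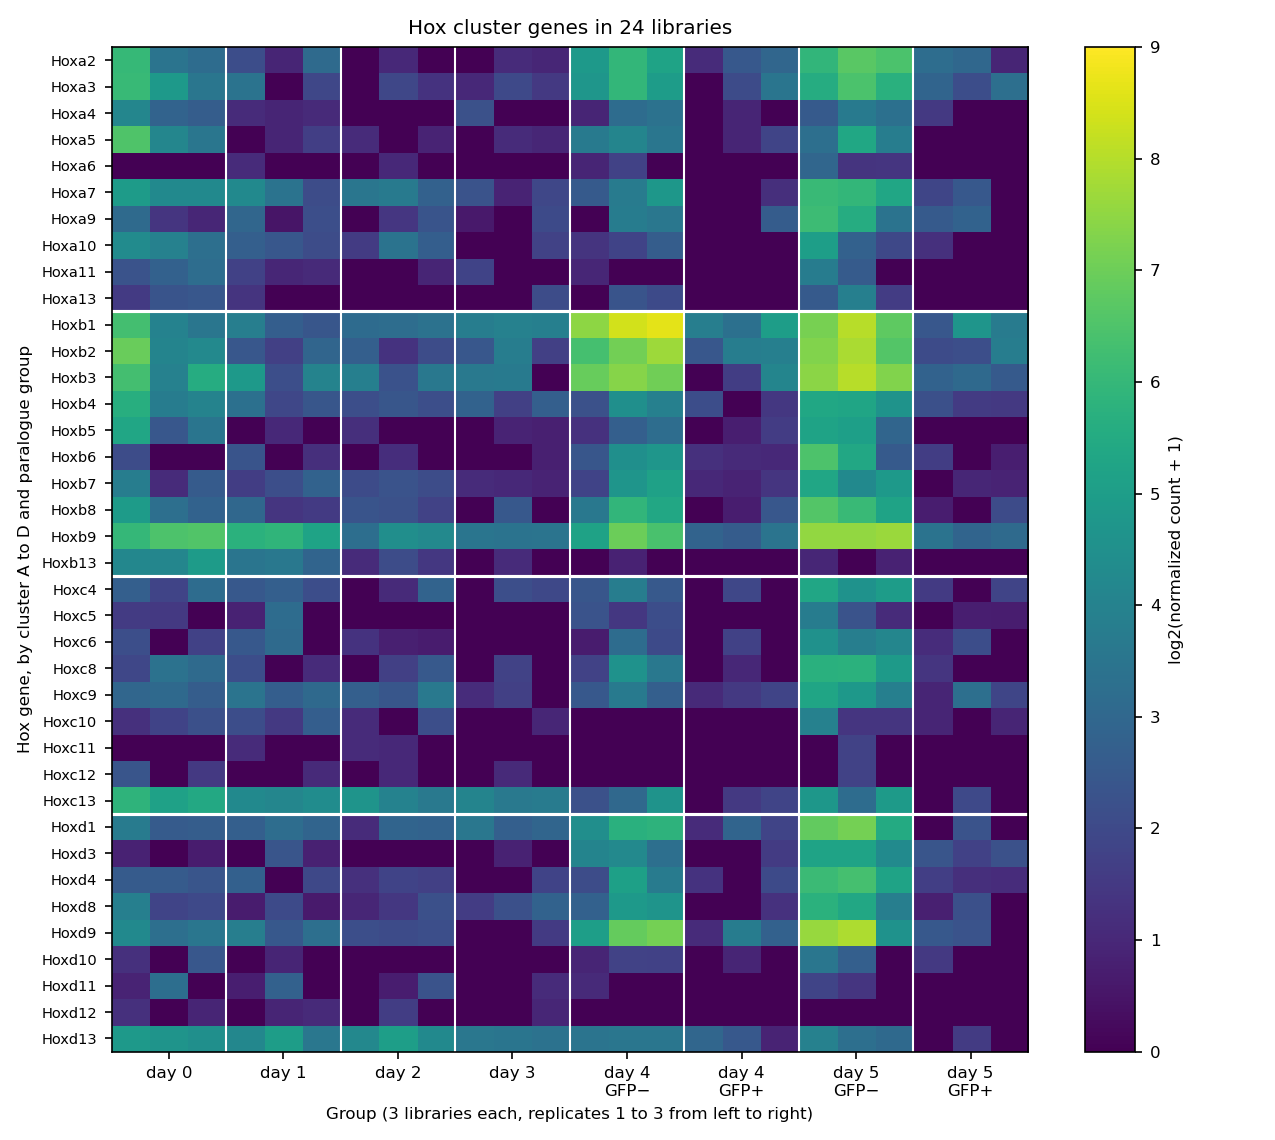
Level of each of the 38 Hox cluster genes (vertical axis, by cluster and paralogue group) in each of the 24 libraries (horizontal axis, 3 per group), coloured by log2(normalized count + 1). The brightest cells are in the day 4 and day 5 GFP-negative libraries, and the GFP-positive libraries resemble day 3.

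Day 0 libraries had sums of 955, 395 and 430, the first of which lay above day 4 GFP-negative replicate 1, those of day 1 had 177 to 271 and those of day 2 had 120 to 153. Day 0 replicate 1 was set apart by paralogue groups 1 to 8. Its sum over groups 1 to 4 was 496, against 115 and 132 in the other day 0 libraries, and over groups 5 to 8 it was 227, against 63.1 and 63.3. Groups 9 to 13 gave 232, 216 and 234, without such a gap and all above the 90.5 of day 4 GFP-negative replicate 1.

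**Figure D2:**
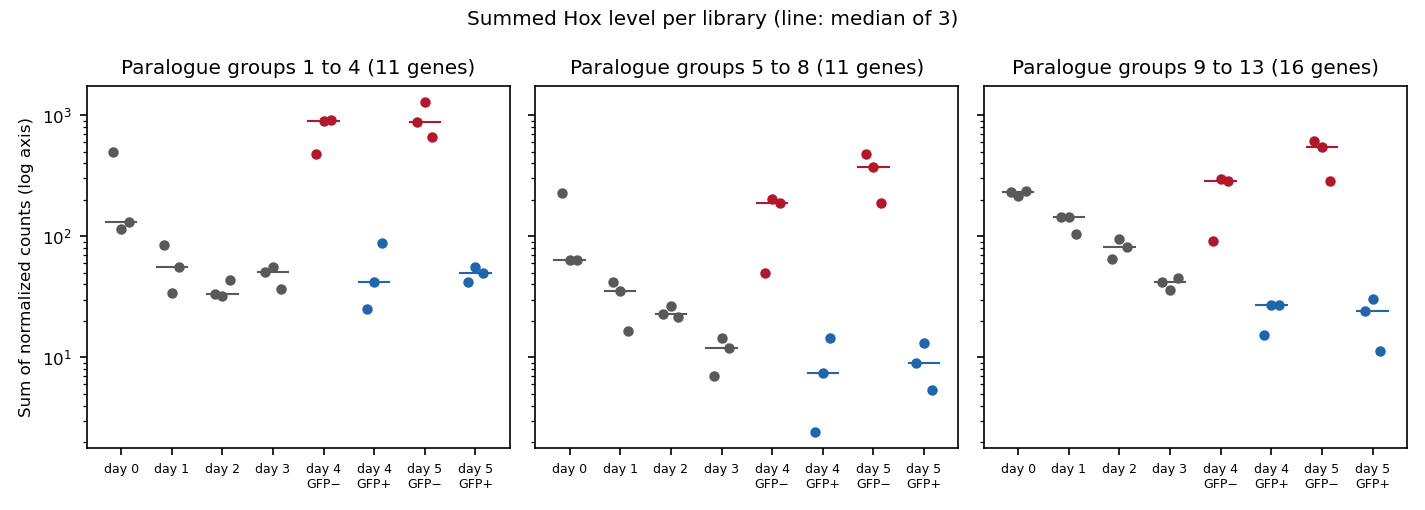
Sum of normalized counts (log axis) over the members of paralogue groups 1 to 4, 5 to 8 and 9 to 13, for each library of the 8 groups, with a line at the median of 3. The red GFP-negative points of days 4 and 5 lie above the blue GFP-positive points of the same day in every panel, and day 0 replicate 1 lies above the other day 0 libraries in the first 2 panels.

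A member was taken as on in a group when all 3 libraries held at least 10 normalized counts. By this rule 11 members were on at day 0, 3 at day 1, 2 at day 2 and 2 at day 3. In GFP-negative cells 11 were on at day 4 and 19 at day 5, and in GFP-positive cells 0 were on at either day. The day 4 count rested on GFP-negative replicate 1, the lowest of its group, and was 19 without it. The day 0 count was 11 without day 0 replicate 1 as well. The 19 members on at day 5 comprised 10 of the 11 in groups 1 to 4, 6 of the 11 in groups 5 to 8 and 3 of the 16 in groups 9 to 13, and they came from all 4 clusters (3 in A, 7 in B, 4 in C and 5 in D). The cutoff of 10 lies close to many values, and with 5 in its place 2 members counted as on in the GFP-positive cells of day 4 and 1 in those of day 5.

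Differences were tested with limma on log2(normalized count + 1) over the 21005 genes that reached 10 normalized counts in 3 or more libraries, all 24 libraries in 1 fit, two-sided. A gene was called when its Benjamini-Hochberg adjusted p was under 0.001 and its log2 fold change exceeded 1.5 in either direction. Fold changes are on this log2 scale, which understates the change of low genes. Shares of all genes are of the 21005 tested, whereas shares of the members are of all 38, tested or not. Of the 38 members 27 passed the filter, and 15 of these passed only through GFP-negative libraries, so that for them a lower value elsewhere follows from the filter and supports nothing. These were Hoxa2, Hoxa9, Hoxa10, Hoxb5, Hoxb6, Hoxb7, Hoxb8, Hoxc4, Hoxc6, Hoxc8, Hoxc9, Hoxd1, Hoxd3, Hoxd4 and Hoxd8, and counts are also given for the 12 other members tested. The 11 others (Hoxa4, Hoxa6, Hoxa11, Hoxa13, Hoxc5, Hoxc10, Hoxc11, Hoxc12, Hoxd10, Hoxd11 and Hoxd12) had highest values between 2.14 (Hoxd12) and 16.7 (Hoxa4) in any library and were not tested. They include 8 of the 16 members of groups 9 to 13.

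Between day 0 and day 3, 5 members fell: Hoxa2, Hoxa5, Hoxa10, Hoxb9 and Hoxb13. No member rose, and 19 of the 27 tested were lower at an unadjusted p under 0.05, as were 26.2% of all genes. Over all genes 6.12% were called lower in this comparison and 5.91% higher. Hoxa2 and Hoxa10 passed the filter only through GFP-negative libraries, and of the 12 members that passed it otherwise 3 fell, against 6.22% of such genes. Hoxb13 passed the filter only through its day 0 libraries, so that the filter favoured its fall. Outside GFP-negative cells Hoxa5 too reached 10 normalized counts only on day 0. Both were therefore among the 12 only through the group where they were high, and for them the share supports nothing. Hoxb9 and Hoxb13, both genes of the trunk and tail, were among the Hox transcripts found in day 0 cells.

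Hoxb13 (ENSMUSG00000049604), the last gene of cluster B, was listed at 16.8, 16.5 and 29.3 normalized counts on day 0, at 10.2, 11.03 and 6.52 on day 1 and at 0, 1.14 and 0 on day 3. All day 0 libraries lay above all later ones, and the gene was not above 1 in any sorted library. Its fall to day 3 was by 4.03 on the log2 scale (SE 0.46, n = 3 and 3, limma adjusted p = 4.15e-07), and by 4.16 without day 0 replicate 1 (SE 0.54, limma adjusted p = 1.86e-06).

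Hoxb9 (ENSMUSG00000020875) had 63.0, 88.0 and 92.2 on day 0 and 10.4, 9.69 and 10.1 on day 3. These groups did not overlap, and the change was -2.87 (SE 0.38, limma adjusted p = 2.76e-06), or -3.04 without day 0 replicate 1 (SE 0.42, limma adjusted p = 4.31e-06). Hoxb9 had the highest level per kilobase of exon of all members on day 0 (31.5 ± 6.12 normalized counts per kb, SD, n = 3), followed by Hoxa5 (20.96 ± 23.8) and Hoxc13 (18.2 ± 4.74), an order in which Hoxa5 and Hoxc13 were closer than their spread. Without day 0 replicate 1 the means were 35.0 for Hoxb9, 15.6 for Hoxc13, 10.4 for Hoxb13, 9.13 for Hoxd13 and 7.24 for Hoxa5, so that the place of Hoxa5 rested on that library.

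Hoxa5, a gene of the neck and upper trunk, had 90.8, 16.5 and 10.7 on day 0 and 0, 1.13 and 0.947 on day 3. Although replicate 1 was far above the others, the call (-4.05, SE 0.69, limma adjusted p = 6.69e-05) was kept without it (-3.15, SE 0.66, limma adjusted p = 4.51e-04). Hoxa2, which patterns the second pharyngeal arch and the hindbrain, had 64.1, 10.1 and 7.99 on day 0 and 0, 1.13 and 0.944 on day 3 (-3.54, SE 0.74, limma adjusted p = 5.00e-04). Its call was lost without day 0 replicate 1 (adjusted p = 0.00384, limma) and without any 1 day 3 library (limma adjusted p = 0.00132 to 0.0039). Hoxa10, a gene of the lumbar trunk, had 19.2, 14.4 and 8.65 on day 0 and 0, 0 and 2.43 on day 3, a call that was lost without day 0 replicate 3 (limma adjusted p = 0.00103) and without day 3 replicate 1 or 2. Without day 0 replicate 1 Hoxa10 did not pass the filter and was not tested. The number of members called was 3 without day 0 replicate 1, day 3 replicate 1 or day 3 replicate 2. Without day 0 replicate 1 and day 4 GFP-negative replicate 1 together, a choice made after the data were seen, 3 members were called in this comparison.

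Hoxc13 and Hoxd13, the last genes of clusters C and D, were on from day 0 to day 2. Hoxc13 had 57.2, 34.2 and 42.6 on day 0 and 15.9, 11.4 and 12.3 on day 3, and Hoxd13 had 27.9, 24.1 and 21.3 and then 10.99, 10.2 and 9.48. The day 0 values lay above the day 3 values for both, yet neither change passed the thresholds (-1.67, SE 0.62, limma adjusted p = 0.0349 for Hoxc13, and -1.17, SE 0.50, limma adjusted p = 0.0645 for Hoxd13). Between day 2 and day 3 limma called no member, with 4 lower and 0 higher at an unadjusted p under 0.05 (14.5% and 13.7% of all genes). In that comparison 0.29% of all genes were called lower and 0.714% higher.

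**Figure D3:**
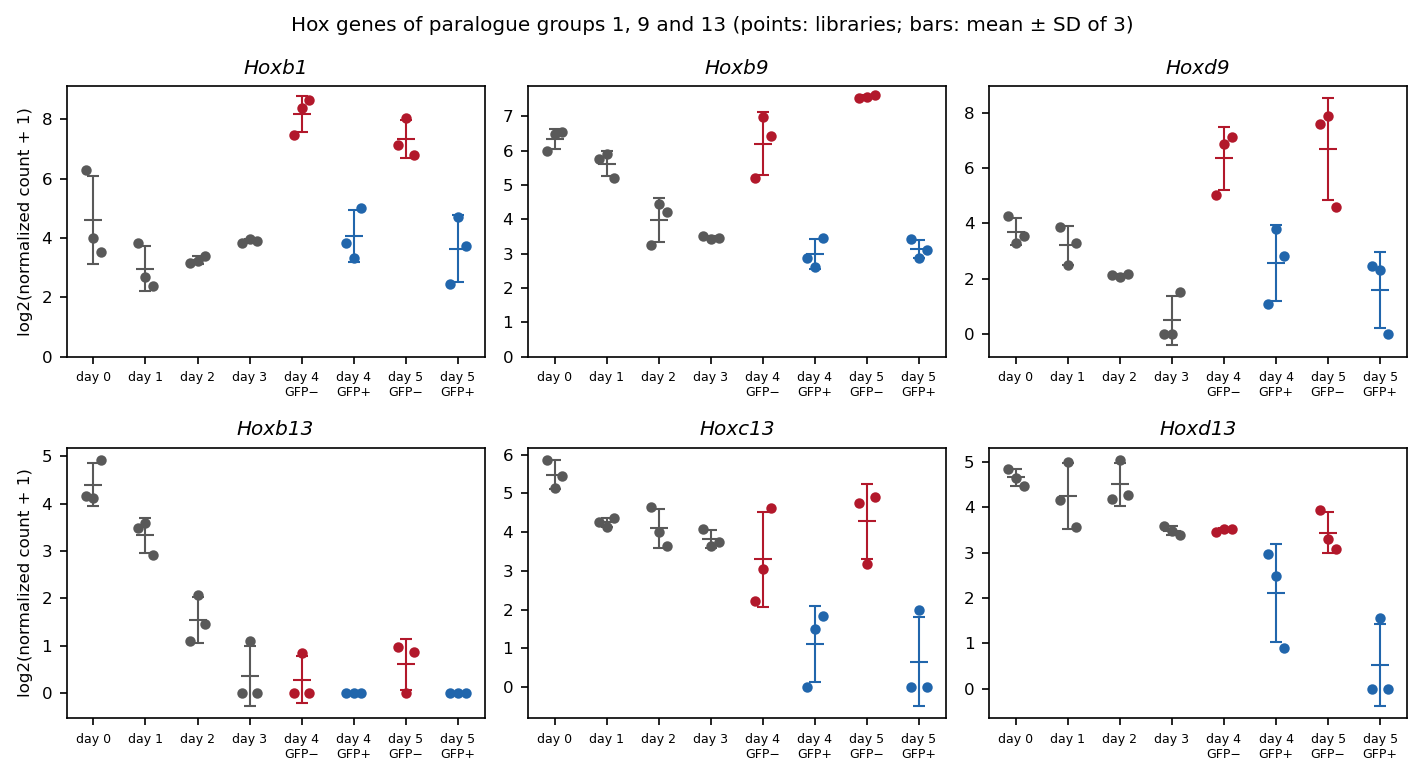
log2(normalized count + 1) of 6 Hox genes of paralogue groups 1, 9 and 13 in the 8 groups, with points for libraries and bars for the mean ± SD of 3. Hoxb1, Hoxb9 and Hoxd9 were high in both GFP-negative groups (red) and low in both GFP-positive groups (blue), whereas Hoxb13 was highest on day 0 and near 0 in all sorted cells.

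From day 3 to day 4 GFP-negative cells 7 members rose, Hoxa2, Hoxb1, Hoxb2, Hoxb8, Hoxb9, Hoxd3 and Hoxd9, and none fell. These were 18.4% of the 38 members, against 2% of all genes called higher and 0.871% called lower. Hoxa2, Hoxb8 and Hoxd3 passed the filter only through GFP-negative libraries. Of the 12 members that passed it otherwise 4 rose, against 1.99% of the genes that did so. At an unadjusted p under 0.05, 21 members were higher, 8 of them among those 12, as were 14.6% of all genes. The 7 came from clusters A, B and D and from paralogue groups 1 to 3, 8 and 9.

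Hoxb1 (ENSMUSG00000018973), which gives rhombomere 4 of the hindbrain its identity, had 13.2, 14.5 and 13.9 on day 3 and 177, 334 and 399.5 in day 4 GFP-negative cells. The groups were far apart, and the change was 4.28 (SE 0.63, limma adjusted p = 4.70e-05). The gene had the highest level per kilobase of the members in that group (131 ± 49.2 normalized counts per kb, SD, n = 3), followed by Hoxd9 (44.7 ± 26.3), Hoxb2 (40.1 ± 17.6), Hoxb3 (32.7 ± 5.64) and Hoxb9 (32.0 ± 17.6), whose levels did not differ beyond their spread.

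Hoxd9 (ENSMUSG00000043342), a gene of the trunk and the proximal limb, had 0, 0 and 1.89 on day 3 and 32.0, 116 and 139 in day 4 GFP-negative cells. The call (5.83, SE 0.84, limma adjusted p = 3.26e-05) was kept in each of the 24 fits without 1 library. Hoxb9 had 35.8, 126 and 85.2 in day 4 GFP-negative cells, all above its day 3 values of 9.69 to 10.4 (2.74, SE 0.38, limma adjusted p = 2.11e-05). For both genes and for Hoxb1, replicate 1 was the lowest of the 3 GFP-negative libraries.

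Hoxb2, a hindbrain gene next to Hoxb1, had 81.3, 134 and 204 in day 4 GFP-negative cells, against 2.30 to 13.2 on day 3. Hoxa2 had 28.3, 60.6 and 36.5, against 0 to 1.13, Hoxb8 had 11.1, 60.4 and 41.4, against 0 to 4.51, and Hoxd3 had 15.8, 17.9 and 8.72, against 0 to 0.796. Each of these 4 calls was lost when 1 of certain libraries was left out. All of them were lost without day 4 GFP-negative replicate 2, the library with the highest sum of that group, which left 3 called members, and without day 3 replicate 1 the comparison had 4. Exons of Hoxd3 share 2225 bases with the overlapping entry Gm28230 and 388 with Hoxd4 on the same strand, so that reads can be split among the 3, and the strand setting of the counting is not given in the sources used here.

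In GFP-positive cells no such rise was found. From day 3 to day 4 GFP-positive cells limma called no member, with 1 higher and 3 lower at an unadjusted p under 0.05 (20.6% and 24.3% of all genes), while 3.33% of all genes were called higher and 7.36% lower. Hoxb1 had 13.4, 8.97 and 31.3 in day 4 GFP-positive cells, on either side of its day 3 values. Hoxc13 came closest to a call, with 0, 1.83 and 2.58 after 11.4 to 15.9 on day 3, which is a change of -2.70 (SE 0.62, limma adjusted p = 0.00151).

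The comparison of the gates asks how far the Hox genes separate eye-field cells from the other cells of the same organoids. On day 4, 7 members were lower in the GFP-positive fraction than in the GFP-negative one (Hoxb1, Hoxb2, Hoxb3, Hoxb9, Hoxd1, Hoxd3 and Hoxd8) and none was higher. This is 18.4% of the members, against 3.63% of all genes called lower and 0.328% called higher, but Hoxd1, Hoxd3 and Hoxd8 passed the filter only through GFP-negative libraries. Of the 12 members that passed it otherwise 4 were called lower, against 3.64% of the genes that did so, and 24 of all members, 11 of them among those 12, were lower at an unadjusted p under 0.05, as were 16% of all genes. On day 5, 20 members were lower and none higher, which is 52.6% of the members against 4.61% of all genes called lower and 0.4% called higher. The filter favoured 10 of these 20 (Hoxa2, Hoxb5, Hoxb7, Hoxb8, Hoxc4, Hoxc8, Hoxd1, Hoxd3, Hoxd4 and Hoxd8), and of the 12 members that passed it otherwise 10 were called lower, against 4.45% of such genes. By set, 9 of the 11 members of groups 1 to 4 were called on day 5, 7 of the 11 of groups 5 to 8 and 4 of the 16 of groups 9 to 13. Of these sets 10, 9 and 8 members were tested. All 10 calls that the filter favoured lie in groups 1 to 8, so these counts cannot show a difference between the sets. The counts rested on single libraries and on the processing. On day 4 they were 2 without GFP-negative replicate 2 or GFP-positive replicate 1, 3 without GFP-negative replicate 3 or GFP-positive replicate 2, and 4 without day 5 GFP-negative replicate 1. On day 5 they were 9 and 10 without GFP-negative replicates 1 and 2, and 11 without GFP-positive replicate 1 or 3. Kept in each of the 24 fits without 1 library were Hoxb1 and Hoxb9 on day 4 and Hoxa7, Hoxb2, Hoxb8, Hoxb9, Hoxc8, Hoxd1 and Hoxd4 on day 5. For Hoxb8, Hoxc8, Hoxd1 and Hoxd4, which the filter favoured, being kept supports nothing. Quantile normalization left Hoxb1, Hoxb9 and Hoxd3 on day 4 and Hoxb9, Hoxc8, Hoxd1 and Hoxd9 on day 5, while 2.68% and 2.71% of all genes were called lower. With only the groups compared in the fit, 0 calls were left on day 4 and 6 on day 5 (Hoxb3, Hoxb4, Hoxb7, Hoxb9, Hoxc8 and Hoxd4), and over all genes the shares called lower were 1.05% and 2.11%. Called under every alternative in which they were tested were Hoxb9 and Hoxc8 on day 5 and no member on day 4. The filter favoured the call of Hoxc8, but not that of Hoxb9. The day 4 gate comparison shares its GFP-negative libraries with the comparison of day 4 GFP-negative cells with day 3.

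**Figure D4:**
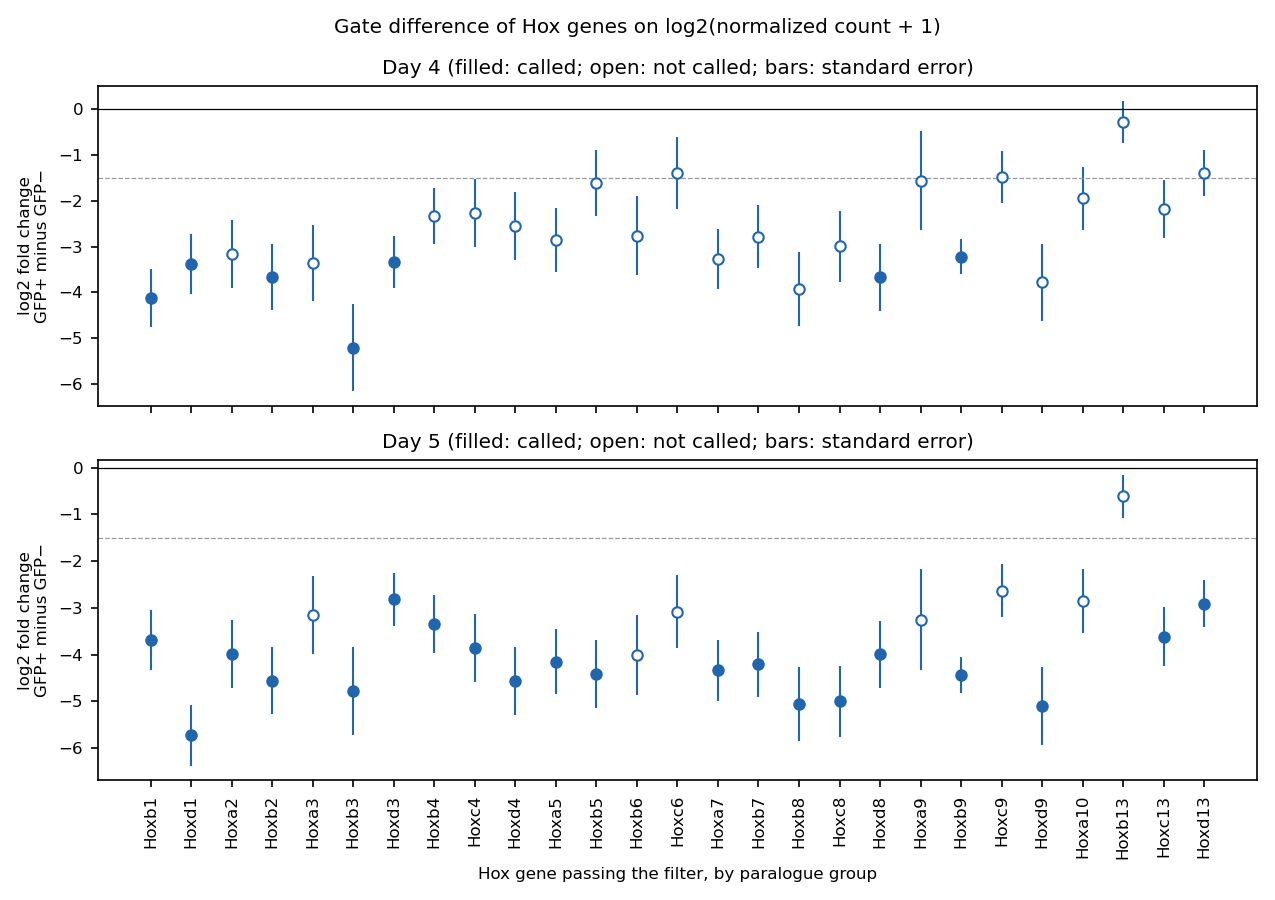
log2 fold change of GFP-positive minus GFP-negative cells with its standard error on day 4 and day 5, for the 27 Hox genes that passed the filter, ordered by paralogue group, with filled points for called genes and a dashed line at the fold threshold of 1.5 in the lower direction. All 27 estimates are below 0 on both days, with 7 called on day 4 and 20 on day 5, and Hoxb13, which was near 0 in all sorted cells, is the closest to 0. For the 15 members that passed only through GFP-negative libraries the filter favoured this direction, and they hold 3 of the day 4 and 10 of the day 5 calls.

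Of the group 1 members, Hoxb1 had 140.5, 262 and 109 in day 5 GFP-negative and 4.46, 25.2 and 12.4 in day 5 GFP-positive cells. Its gate difference was -4.11 on day 4 (SE 0.63, limma adjusted p = 6.01e-05) and -3.69 on day 5 (SE 0.63, limma adjusted p = 1.86e-04). The day 5 call of Hoxb1 was lost without GFP-negative replicate 2 or GFP-positive replicate 1. Hoxd1 (ENSMUSG00000042448), the first gene of cluster D, had 21.01, 51.0 and 55.4 in GFP-negative and 1.14, 6.41 and 2.58 in GFP-positive cells on day 4. On day 5 it had 115, 138 and 44.3 in GFP-negative and 0, 3.96 and 0 in GFP-positive cells, a fitted difference of -5.72 (SE 0.65, limma adjusted p = 1.13e-06), and it is among the members whose low values the filter favoured. Neither gene's gates overlapped on either day.

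In groups 2 and 3, which pattern the hindbrain and the pharyngeal arches, Hoxa2 had 59.7, 103 and 87.0 in day 5 GFP-negative and 8.21, 6.94 and 0.904 in day 5 GFP-positive cells. Hoxb2 had 157, 229 and 94.3 and, in GFP-positive cells, 3.21, 3.48 and 13.2 (-4.55, SE 0.71, limma adjusted p = 6.21e-05). Hoxb3 had 172, 259.6 and 156, against 6.05, 7.42 and 4.80. The gates were well apart in all 3, though 2250 exon bases of Hoxb3 overlap the antisense entry Hoxb3os. The call of Hoxb3 was lost in each fit without 1 of the 6 day 5 libraries, and that of Hoxa2 in 4 of these 6 fits. Hoxd3 had 36.7, 36.5 and 18.8, against 4.17, 2.32 and 3.71, and its call was lost without any 1 of the 6 day 5 libraries. Hoxa2 and Hoxd3 passed the filter only through GFP-negative libraries, so that their low values elsewhere follow from it. Hoxa3 was on in GFP-negative cells (46.4, 87.2 and 52.1) and had 6.49, 3.39 and 8.69 in GFP-positive cells, a difference of -3.15 that did not pass the thresholds (SE 0.84, limma adjusted p = 0.0109).

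Of the group 4 genes, whose expression begins in the caudal hindbrain, Hoxb4, Hoxc4 and Hoxd4 were on in GFP-negative cells of day 5. On day 4 Hoxb4 (3.66, 21.1 and 14.1) and Hoxd4 missed this level through replicate 1 alone, and no day difference was called. Hoxd4 had 3.30, 33.9 and 12.5 on day 4 and 69.3, 80.2 and 36.1 on day 5, against 2.15, 1.33 and 1.21 in day 5 GFP-positive cells (-4.56, SE 0.73, limma adjusted p = 8.75e-05). Hoxb4 had 40.4, 38.5 and 23.8 in day 5 GFP-negative cells and 1.81 to 3.64 in GFP-positive cells, and Hoxc4 had 39.5, 23.3 and 30.4 and 0 to 2.57. The gates did not overlap for either gene, and both were called, but both calls were lost in each fit without 1 of the 6 day 5 libraries. Hoxc4 and Hoxd4, unlike Hoxb4, passed the filter only through GFP-negative libraries, so that their low values elsewhere follow from it.

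Groups 5 to 8 mark the neck and thorax. Hoxc8 had 51.9, 52.9 and 29.1 in day 5 GFP-negative and 1.62, 0 and 0 in GFP-positive cells (-5.00, SE 0.77, limma adjusted p = 5.33e-05). Hoxb8 had 95.1, 67.9 and 36.5, against 0.628, 0 and 3.15 (-5.05, SE 0.80, limma adjusted p = 7.60e-05), and Hoxa7 had 67.0, 60.6 and 38.8, against 2.71, 4.52 and 0 (-4.33, SE 0.65, limma adjusted p = 4.30e-05). Of these, Hoxa7 passed the filter without the GFP-negative libraries, and its call was kept in each of the 24 fits without 1 library but not under quantile normalization or with only the groups compared. Hoxb7 (39.2, 18.5 and 27.8, against 0 to 0.934) and Hoxd8 (52.5, 41.2 and 13.3, against 0 to 3.55) were called as well. The filter favoured the low values of both. Hoxa5 (8.68, 40.04 and 13.2) and Hoxb5 (36.5, 32.5 and 6.69) were called in comparison with GFP-positive libraries in which both were listed at 0 throughout, so no fold is given for them. Hoxc6 was on in GFP-negative cells (22.2, 13.4 and 16.4) with 1.20, 3.39 and 0 in GFP-positive cells and was not called (-3.08, SE 0.79, limma adjusted p = 0.00842). Hoxb6 reached 87.9 in day 5 GFP-negative replicate 1 but 4.88 in replicate 3, and it was not called.

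In groups 9 to 13, Hoxb9 had 186, 187 and 197 in day 5 GFP-negative and 9.71, 6.41 and 7.72 in GFP-positive cells (-4.43, SE 0.38, limma adjusted p = 2.17e-08). This was the member with the smallest p in the gate comparison of each day, and the one with the smallest standard error. Hoxd9 had 193, 234 and 23.0, against 4.55, 3.94 and 0 (-5.10, SE 0.84, limma adjusted p = 1.14e-04), with replicate 3 well below the other GFP-negative libraries. That call was lost without GFP-negative replicate 1 or 2 or GFP-positive replicate 3 (limma adjusted p = 0.00145 to 0.00156). Hoxc9 was on at day 5 (38.2, 27.0 and 13.9) and was not called (-2.63, SE 0.57, limma adjusted p = 0.00193). Per kilobase, Hoxb9 (73.9 ± 2.39), Hoxb1 (73.4 ± 34.7) and Hoxd9 (70.3 ± 52.5 normalized counts per kb, SD, n = 3) led the day 5 GFP-negative cells and did not differ beyond their spread.

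The terminal genes differed in which libraries held them. Hoxc13 had 26.0, 8.02 and 28.8 in day 5 GFP-negative and 0, 2.95 and 0 in GFP-positive cells (-3.61, SE 0.62, limma adjusted p = 1.96e-04), and Hoxd13 had 14.4, 8.82 and 7.40 and then 0, 1.97 and 0 (-2.91, SE 0.50, limma adjusted p = 1.92e-04). In GFP-negative cells both remained within or below the range they had from day 0 to day 3, so these gate differences came with low GFP-positive values. The Hoxc13 call was lost in 4 and the Hoxd13 call in 3 of the 6 fits without 1 day 5 library. Both calls were also lost under quantile normalization and with only the groups compared. Hoxb13 had at most 0.963 in any library of day 5. Hoxa9 and Hoxa10 reached 71.6 and 32.2 in day 5 GFP-negative replicate 1, but 9.69 and 2.84 in replicate 3, and neither was called.

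Whether the gate difference grew from day 4 to day 5 was tested as an interaction. Limma called no member, with 4 lower and 0 higher at an unadjusted p under 0.05 (5.63% and 3.77% of all genes), and 0.0333% of all genes were called lower and 0.0762% higher. Within the GFP-negative cells limma called no member between day 4 and day 5, with 10 higher and 0 lower at an unadjusted p under 0.05 (12.6% and 10.3% of all genes), while 0.762% of all genes were called higher and 0.509% lower. Hoxb9 had the smallest p (1.37, SE 0.38, limma adjusted p = 0.0221). Within the GFP-positive cells no member was called by limma either, with 1 higher and 1 lower at an unadjusted p under 0.05 (10% and 10.3% of all genes), while 0.595% of all genes were called higher and 0.89% lower. The step from 7 to 20 called members was therefore not shown as a change in the gate difference of any 1 gene.

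The genes that set Hox expression were examined as a list of 19 regulators, all of which were tested. Posterior Wnt and Fgf signals and Cdx proteins switch Hox genes on, retinoic acid made by Aldh1a2 acts mainly on the genes of low number, and the Cyp26 enzymes remove it. From day 3 to day 4 GFP-negative cells 7 regulators rose (Aldh1a2, Cdx2, Cdx4, Cyp26c1, Gbx2, T and Wnt3a) and 0 fell, against 2% and 0.871% of all genes, with a list median of 1.91 against -0.02 over all genes tested. From day 3 to day 4 GFP-positive cells 3 rose (Aldh1a2, Cdx4 and Rarb) and 2 fell (Fgf8 and T), against 3.33% and 7.36% of all genes. In GFP-positive compared with GFP-negative cells 6 were lower on day 4 and 8 on day 5, against 3.63% and 4.61% of all genes, 0 were higher, and the list medians were -0.42 and -0.90 against medians within 0.01 of 0 over all genes.

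Cdx2, a homeobox factor of the caudal embryo, had 29.3, 53.4 and 18.0 on day 3 and 299, 610.2 and 739 in day 4 GFP-negative cells, where GFP-positive cells had 15.9, 27.5 and 39.5. On day 5 the GFP-negative values were 733, 819 and 389.6 and the GFP-positive values 10.9, 25.6 and 9.05 (-5.39, SE 0.45, limma adjusted p = 1.82e-08). Wnt3a, a ligand of the primitive streak and tail bud, had 351, 416 and 404 in day 5 GFP-negative and 32.7, 54.0 and 30.8 in GFP-positive cells (-3.33, SE 0.51, limma adjusted p = 4.84e-05). The gates of both genes did not overlap on either day. Fgf8, Gbx2 and T were also lower in GFP-positive cells on both days.

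The retinoic acid enzymes went different ways. Aldh1a2, which makes retinoic acid, rose from 14.6, 40.9 and 16.1 on day 3 in both fractions, to 698, 1059 and 1032 in GFP-negative cells (5.35, SE 0.42, limma adjusted p = 1.29e-08) and to 1918, 2233 and 1886 in GFP-positive cells (6.49, SE 0.42, limma adjusted p = 8.47e-11). Cyp26a1, which degrades retinoic acid, had 908, 1695 and 1546 in day 4 GFP-negative and 55.8, 87.9 and 138 in GFP-positive cells (-3.91, SE 0.54, limma adjusted p = 1.55e-05). Cyp26c1 was lower in GFP-positive cells on day 5, with 11.9 to 14.9 against 154 to 186. Aldh1a2 was abundant in both fractions, whereas Cyp26a1 and Cyp26c1 were more abundant in the GFP-negative fraction. Cyp26b1, the remaining enzyme of removal, had a mean of 34.7 ± 6.03 (SD, n = 3) in day 4 GFP-negative and 32.2 ± 8.48 in GFP-positive cells, and on day 5 it had 75.6 ± 18.3 and 27.0 ± 6.92 and was not called (-1.45, SE 0.41, limma adjusted p = 0.0161).

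The cofactors that bind DNA with Hox proteins (Pbx, Meis and Pknox, 9 genes, all tested) were examined as well. From day 3 to day 4, 3 of them rose in GFP-negative and 3 in GFP-positive cells (where 2% and 3.33% of all genes were called higher), and in both cases these were Meis1, Meis2 and Pknox2. In the gate comparisons 0 of the 9 were called lower in GFP-positive cells on either day, where 3.63% and 4.61% of all genes were, and the list medians were 0.37 and 0.47. On day 5 Meis1, which also acts in the early eye, was higher there, with 2604, 2472 and 2778 against 493, 531 and 521 in GFP-negative cells (2.34, SE 0.27, limma adjusted p = 1.21e-06).

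**Figure D5:**
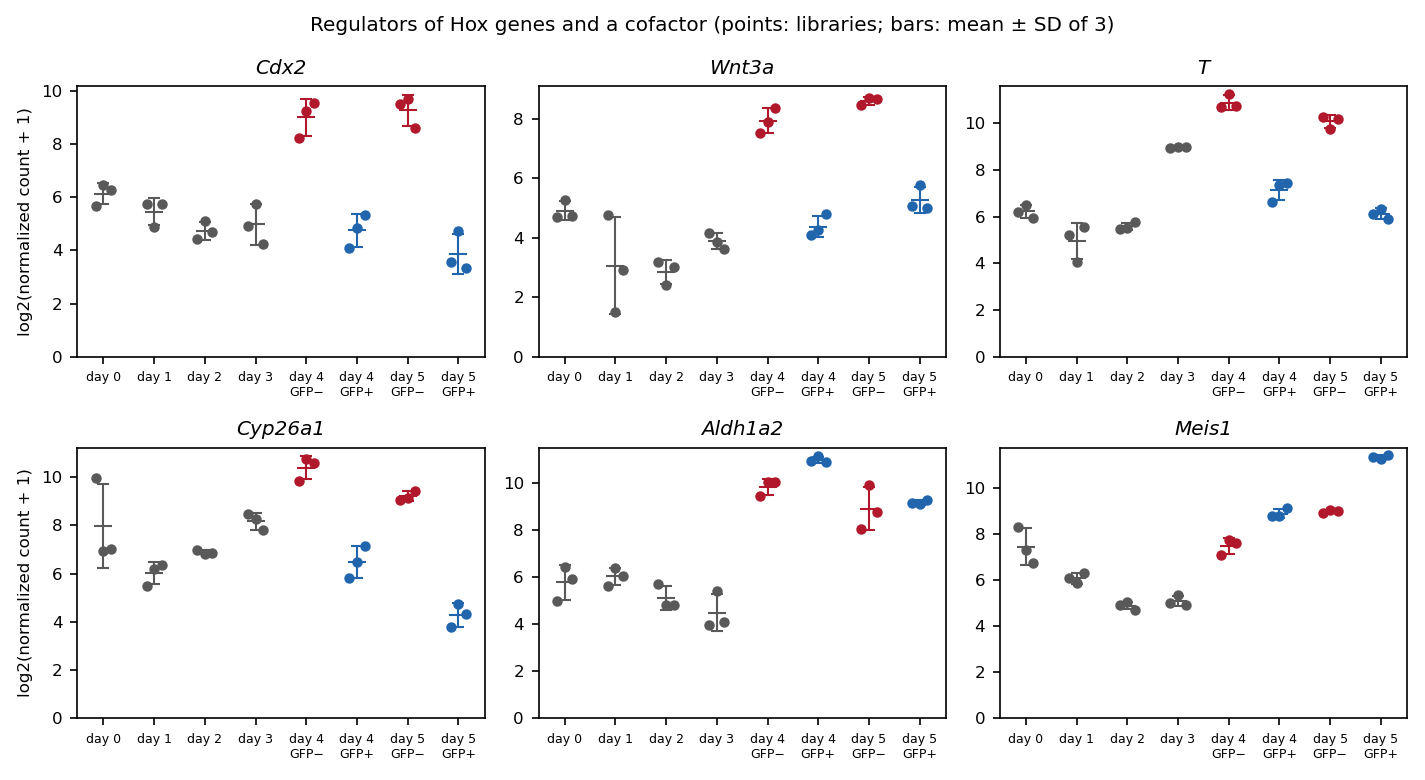
log2(normalized count + 1) of 5 regulators of Hox genes and of the cofactor Meis1 in the 8 groups, with points for libraries and bars for the mean ± SD of 3. Cdx2, Wnt3a, T and Cyp26a1 were lower in the blue GFP-positive than in the red GFP-negative points on both days, Aldh1a2 was high in both fractions, and Meis1 was higher in GFP-positive cells on day 5.

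Apart from the eye-field and anterior neural lists, the summed level of every list of cell type markers was also lower in GFP-positive than GFP-negative libraries, without overlap on either day, though not every marker was called. The other lists are set against 3.63% of all genes called lower in the day 4 gates and 4.61% in those of day 5.
The 5 pluripotency genes, all called lower on both days, summed to 11197 to 13343 in day 4 GFP-negative and 1020 to 1816 in GFP-positive libraries, and to 4226 to 5060 and 327 to 418 on day 5. Of the 6 markers of primitive streak and nascent mesoderm 6 were called lower on day 4 and 4 on day 5, and they summed to 5719 to 8820 and 300.4 to 662 on day 4 and to 2132 to 2464 and 144 to 239 on day 5. Of the 4 definitive endoderm markers 3 and 4 were called, with sums of 2328 to 3083 and 726 to 915 on day 4 and 3047 to 4366 and 666 to 759.6 on day 5. In these 3 lists most genes were called.
Of the 4 posterior neural markers, 3 of which are Cdx genes of the regulator list, 2 and 3 were called, with sums of 1209 to 1716 and 65.9 to 105 on day 4 and 602 to 1121 and 19.0 to 58.0 on day 5. Of the 3 hindbrain markers, all of them also in the regulator list, Gbx2 alone was called on each day, and the sums were 502 to 673 and 70.3 to 113 on day 4 and 733 to 779 and 209 to 236 on day 5. Of the 5 markers of extraembryonic mesoderm and allantois 1 and 3 were called, with sums of 318 to 2390 and 32.7 to 194 on day 4 and 576 to 3966 and 72.8 to 107 on day 5. The other two lists were likewise called in part. Of the 5 endothelial markers 2 and 3 were called, with sums of 964 to 1815 and 133 to 262 on day 4 and 1474 to 2177 and 731 to 896 on day 5. Of the 5 neural crest markers 2 were called on each day, with sums of 1129 to 1416 and 306 to 409 on day 4 and 1085 to 1677 and 302 to 425 on day 5.
No marker of these lists was at 0 in all libraries of a sorted group. Which of these cells held the Hox RNA was not tested.

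Of 13 genes just outside the clusters 12 were tested, and 2 were lower in GFP-positive cells on both days, against 3.63% and 4.61% of all genes, with list medians of -0.02 on day 4 and 0.15 on day 5. These were Evx1, a posterior homeobox gene at the end of cluster A (365, 379.8 and 309.5 in day 5 GFP-negative against 5.22, 13.4 and 7.43 in GFP-positive cells, -5.27, SE 0.48, limma adjusted p = 5.50e-08), and Calcoco2 near cluster B. Evx2, at the end of cluster D, did not pass the filter.

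Inside the clusters the table held 40 further entries, mostly antisense and long non-coding RNAs, of which 16 were at 0 in every library and 9 passed the filter. Haglr, which lies antisense in cluster D, was lower in GFP-positive cells on day 4 (-4.70, SE 0.84, limma adjusted p = 3.45e-04) and on day 5 (-4.29, SE 0.84, limma adjusted p = 7.68e-04). Its mean was 62.0 ± 34.1 (SD, n = 3) in day 5 GFP-negative and 2.68 ± 3.39 in GFP-positive cells. Hoxb5os was lower on day 5 (-3.44, SE 0.57, limma adjusted p = 1.34e-04), with 18.4 to 30.8 in GFP-negative and 0 to 2.58 in GFP-positive cells. Both entries passed the filter only through GFP-negative libraries, so that lower values elsewhere follow from it. Without a stated strand setting, reads of an antisense entry and of the Hox gene it overlaps cannot be told apart.

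Gm53, a long intergenic RNA between Hoxb13 and Hoxb9, had a mean of 361 ± 143 (SD, n = 3) on day 0 and 563 ± 99.4 on day 1, and by day 3 it was at 51.2 ± 6.34. It was lower on day 3 than on day 0 (-2.72, SE 0.56, limma adjusted p = 4.64e-04), in day 4 GFP-positive cells than on day 3 (-4.14, SE 0.56, limma adjusted p = 4.21e-06), and in the GFP-positive fraction of both days than in the GFP-negative one. In day 4 GFP-negative cells, where its neighbour Hoxb9 rose, it had 8.45 to 49.8 and did not pass the thresholds (-1.30, SE 0.56, limma adjusted p = 0.120).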

How the data were processed

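RNA-seq of 24 OV organoid libraries (8 groups, 3 replicates each) was analysed. The authors pseudo-aligned reads with kallisto 0.43.1 (submitters' processing notes) to an Ensembl transcriptome (coding regions and non-coding RNA) of mouse build 38 (mm10) and normalized the estimates with DESeq2. The deposited signal values are these normalized counts per gene, in 49705 entries. Columns of TRUE or FALSE calls by the authors were not used. Whole reads could not be recovered from the values, so no count model was fitted.

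log2(normalized count + 1) of the 21005 genes that reached 10 in 3 or more libraries was fitted by limma 3.58.1 under R 4.3.3 (functions lmFit, contrasts.fit and eBayes, trend on), two-sided, with Benjamini-Hochberg adjustment within each contrast. Groups came from the sample labels. The labels number replicates and the study describes biological triplicates, without saying that they came from separate runs of differentiation. The p-values therefore measure the spread between these samples. Shared replicate numbers did not pair libraries (mean correlation of same-numbered deviations -0.0005 over 84 pairs, 10 of them above 0.1). The labels have day 4 and day 5 samples sorted into both gates without saying that numbers match, and same-numbered gates of a day had correlations of -0.11 to 0.15, of which 1 of 6 was above 0.1. So no block was used. Depth was estimated at 36800000 to 54500000 reads, and values near 10 rest on few reads.

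The members, the lists of regulators, cofactors, flanking genes and markers, and the tests were chosen with earlier results of these data known. Named members are those called in a contrast or on in a group. 2 genes of the lists are not reported here and were left out of their counts. Regulators and cofactors are named where called in a gate contrast or from day 3 to day 4, and markers are given by counts and sums. Hoxa9, Hoxb6, Gm53, the non-coding entries described, the motifs and the promoter stretches were picked for description after their values were seen. Cluster positions are those of the table. Exon lengths and overlaps are from GENCODE M21 and promoters from RefSeq (GRCm38.p6). The procedure was tested on simulated data. Python 3.11.15, numpy 2.4.6, pandas 2.3.3 and matplotlib 3.10.9 were used. As alternatives, a pseudocount of 0.5 or 5, no filter or one of 50, quantile normalization, no trend, a replicate block, looser thresholds, only the groups compared, other levels for on, and leaving out each library were tried.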

Additional observations from a re-analysis of the deposited data

How the results depend on the processing

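No result changed direction. With an adjusted p under 0.05 and no fold threshold, the members called numbered 17 from day 0 to day 3, 1 from day 2 to day 3, 17 from day 3 to day 4 GFP-negative cells, 2 from day 3 to day 4 GFP-positive cells, 20 in the day 4 gates, 26 in the day 5 gates, and 2 and 1 from day 4 to day 5 within GFP-negative and GFP-positive cells, while 43.6%, 14.4%, 18.5%, 37.9%, 15.7%, 16.0%, 10.2% and 9.80% of all genes were called in these comparisons. With only the groups compared in the fit, which leaves few degrees of freedom, they numbered 0 from day 0 to day 3, 2 from day 3 to day 4 GFP-negative cells, 0 in the day 4 gates and 6 in the day 5 gates. Over all genes 2.65%, 1.40%, 1.36% and 2.51% were called in these fits. A filter of 50, under which fewer members are tested, gave 2 from day 0 to day 3 and 8 in the day 5 gates. Quantile normalization gave 3 in the day 4 and 4 in the day 5 gates, where 3.08% and 3.21% of all genes were called. No filter and no mean-variance trend each gave 4 in the day 4 gates. With the replicate block the counts were 3, 6, 5 and 18 in the comparisons with 5, 7, 7 and 20 calls, and libraries shared only a number. With a block within day 4 and within day 5, chosen after seeing the data, the gates had 7 and 17, and the calls of Hoxb2 and Hoxd3 on day 4 and of Hoxb3, Hoxb4 and Hoxd3 on day 5 were lost. Without day 0 replicate 1 and day 4 GFP-negative replicate 1 together, chosen after seeing the data, the counts were 3 from day 0 to day 3 and 1 from day 3 to day 4 GFP-positive cells. The cause of these changes was otherwise not tested.

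Leaving out 1 library gave 3 to 6 members from day 0 to day 3, 3 to 9 from day 3 to day 4 GFP-negative cells, 0 to 1 from day 3 to day 4 GFP-positive cells, 2 to 10 in the day 4 gates, 9 to 21 in the day 5 gates, and 0 in the other comparisons. Calls kept in every such fit were 3 from day 0 to day 3 (Hoxa5, Hoxb9 and Hoxb13), 3 from day 3 to day 4 GFP-negative cells (Hoxb1, Hoxb9 and Hoxd9), 2 in the day 4 gates (Hoxb1 and Hoxb9) and 7 in the day 5 gates (Hoxa7, Hoxb2, Hoxb8, Hoxb9, Hoxc8, Hoxd1 and Hoxd4). Among these the filter favoured Hoxb13 from day 0 to day 3 and Hoxb8, Hoxc8, Hoxd1 and Hoxd4 in the day 5 gates. Members on, with levels of 5 and 20 in place of 10, numbered 18 and 3 at day 0, 6 and 1 at day 1, 5 and 0 at day 2, 5 and 0 at day 3, 13 and 8 in day 4 and 24 and 14 in day 5 GFP-negative cells, and with a level of 5 there were 2 and 1 in day 4 and day 5 GFP-positive cells. Without 1 library they numbered 11 to 13, 3 to 4, 3 and 2 to 4 at days 0 to 3, 11 to 19 and 20 to 22 in GFP-negative cells, and 0 to 1 in GFP-positive cells of days 4 and 5. At this depth members at a few normalized counts cannot be told from those at 0.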

Other observations

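The 5 genes whose log2 values followed the mean of the 27 tested members most closely over the 24 libraries were Pdgfra (Pearson r = 0.915), Pth1r (0.913), Cdx2 (0.912), Col4a1 (0.899) and Fzd10 (0.893). The correlations describe libraries that share days and gates, and no p is given. Pdgfra, a receptor of mesoderm and primitive endoderm, had 2491 to 2743 normalized counts in day 5 GFP-negative and 524 to 655 in day 5 GFP-positive libraries. Fzd10, a Wnt receptor, had 1548 to 1743 and 204 to 287, and Col4a1, a collagen of basement membranes, had 26679 to 42668 and 8029 to 9556. For all 3 the gates of day 5 did not overlap, which follows from picking genes that track a mean that differs between the gates.

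The microRNA entry Mir196a-1, which lies between Hoxb13 and Hoxb9 beside Gm53, was listed at 11.9 to 38.9 on day 0, at 22.7 to 34.9 on day 1 and at 2.18 to 3.78 on day 3. It was lower on day 3 than on day 0 (-2.59, SE 0.52, limma adjusted p = 3.27e-04). Libraries of polyadenylated RNA measure a host transcript at such an entry and not the mature microRNA.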
